A study of Mus musculus with 29 samples.

Results

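A set of 9 genes of the B lymphocyte lineage was followed through RNA-seq libraries of megakaryocyte-erythrocyte progenitors (MEPs), the precursors of platelets and erythrocytes. The 9 genes, out of 18834 in the count files, were taken by name and found by mapping the Entrez gene numbers of the files to mouse symbols: Cd79a, Cd79b, Blnk, Pou2af1, Dntt, Cd22, Ebf1, Pax5 and Vpreb1. The 29 mouse libraries, each made from total RNA of 230000 sorted MEPs, fell into 6 genotypes, and every mouse carried a Cre transgene that the sample labels spell ScleCre in the genotypes without JAK2V617F and SclCre in those with it, while the design text of the series writes SclCre for all 6. In this transgene the recombinase is driven by regulatory sequence of Scl, a gene active in blood progenitors. The groups were ScleCre alone with intact Ezh2 (controls, n = 5), ScleCre with Ezh2 +/- (n = 4), ScleCre with Ezh2 -/- (n = 4), SclCre with JAK2V617F and intact Ezh2 (V617F, n = 4), SclCre with JAK2V617F and Ezh2 +/- (n = 6), and SclCre with JAK2V617F and Ezh2 -/- (the double mutant, n = 6). JAK2V617F is an activating change of the kinase JAK2 found in myeloproliferative neoplasms, and EZH2 is the enzyme that writes the repressive H3K27 methyl mark. The labels used here name neither the age of the mice nor the timing of Cre activity, and they call the libraries replicates without saying that these came from separate animals. A p-value therefore reflects only how far these samples differ from each other, a spread that may be technical. Males gave 6 libraries (controls 1 and 2, Ezh2 +/- 1 and 4, Ezh2 -/- 4 and V617F 3) and females 23.

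B cell development starts when EBF1, with E2A, turns on PAX5, and the 3 factors together switch on the parts of the pre-B and B cell receptors. CD79A and CD79B are the signalling chains of that receptor, VPREB1 is a piece of the surrogate light chain, which pairs with the immunoglobulin heavy chain before a light chain exists, and BLNK is the adaptor that passes the signal on. DNTT (terminal transferase) adds bases at the joints of recombining receptor genes in early lymphoid cells, POU2AF1 is a coactivator of octamer-binding factors, and CD22 is an inhibitory receptor best known from more mature B cells.

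The upstream sequences of 3 members that moved together in these data are shown because each holds the letters CAGGTG, the E-box bound by E2A proteins. They are the 250 bases before the RefSeq start site (GRCm38.p6), 5′ to 3′ on the gene's own strand, with CAGGTG or its reverse complement CACCTG in capitals. The Cd79a sequence lies at chr7:24897247-24897496 (plus strand), that of Blnk at chr19:40994222-40994471 (minus strand) and that of Vpreb1 at chr16:16869256-16869505 (minus strand).
Cd79a: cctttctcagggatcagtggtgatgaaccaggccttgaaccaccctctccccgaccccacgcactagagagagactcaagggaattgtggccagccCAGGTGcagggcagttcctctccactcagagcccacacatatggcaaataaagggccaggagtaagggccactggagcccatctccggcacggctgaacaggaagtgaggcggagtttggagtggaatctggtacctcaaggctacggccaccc
Blnk: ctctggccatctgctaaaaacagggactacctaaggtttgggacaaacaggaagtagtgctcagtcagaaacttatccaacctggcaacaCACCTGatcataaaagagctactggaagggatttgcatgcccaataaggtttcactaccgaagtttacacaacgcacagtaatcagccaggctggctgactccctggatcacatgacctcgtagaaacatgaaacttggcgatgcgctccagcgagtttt
Vpreb1: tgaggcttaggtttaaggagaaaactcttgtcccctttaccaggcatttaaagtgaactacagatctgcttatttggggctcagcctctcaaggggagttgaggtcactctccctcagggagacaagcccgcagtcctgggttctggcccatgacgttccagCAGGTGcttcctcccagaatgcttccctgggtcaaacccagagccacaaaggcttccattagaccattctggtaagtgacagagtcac
RefSeq promoter sequence was matched for 8 of the 9 members, giving 9 promoters because Ebf1 has a pair. CAGGTG, searched on both strands, was in 4 of the 9, beginning at position -154 of Cd79a, -160 of Blnk and -88 of Vpreb1, and at -245 of Cd22, and in 17.2% of 32851 mouse promoters of the same length. The octamer ATGCAAAT was in 1 of the 9, that of Blnk at -130, against 1.60% of all promoters, and the EBF half-site pair CCCNNGGG in 1 of the 9, that of Cd22 at -48, against 11.8%. The 3 motifs did not overlap in these promoters, and a match is a match of letters only.

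Library totals ran from 31583023 to 59448945 counts with a median of 44648320. Levels are given as CPM, that is counts scaled to a common library total, after trimmed-mean (TMM) scaling, and 3 counts, taken here as the limit of detection, corresponded to 0.0505 to 0.0950 CPM depending on the library. Ezh2 followed the labels: it averaged 303 CPM in controls, 192 in Ezh2 +/- and 73.4 in Ezh2 -/- cells, and 289, 174 and 55.0 in the 3 V617F genotypes. The 14 erythroid markers summed to between 5830 and 11242 CPM in every library, led by Car1 and Car2 (3451 and 1989 CPM on average in controls), whereas no member exceeded 19.4 CPM in any library. All 9 members passed the filter on low counts, and each was above its cutoff of 0.224 CPM in at least 6 libraries outside the double mutant. Summed T and NK cell genes were highest within their groups in control 5 (267 CPM) and Ezh2 +/- 2 and 5 (168 and 219 CPM), so results that rest on these 3 libraries are given with and without them. Among Ezh2 -/- libraries replicate 4 was highest (135 CPM, against 82.6 to 87.9 CPM). For Blnk, Cd79a, Dntt and Pou2af1 the estimates of Ezh2 loss without JAK2V617F are also given without it. In libraries of bulk cells such as these, fewer cells of a type and less RNA per cell cannot be told apart.

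In the double mutant, 7 of the 9 genes were higher than in V617F cells with intact Ezh2, by 3.0 to 4.07 on the log2 scale. The rise was uneven between libraries: 4 of the 6 double-mutant libraries were high in every one of the 7 genes, 1 was intermediate and 1 lay at the V617F level. Cd79b and Cd22 did not pass the test. The estimate for Cd22 was 1.38 ± 0.63 (SE, edgeR adjusted p = 0.102), against V617F libraries of 1 to 8 counts. Cd22 lay above every V617F library in 4 of the 6 double-mutant libraries. Without JAK2V617F, loss of Ezh2 changed none of the 9 significantly, and loss of 1 Ezh2 allele changed none in either setting.

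**Figure D1:**
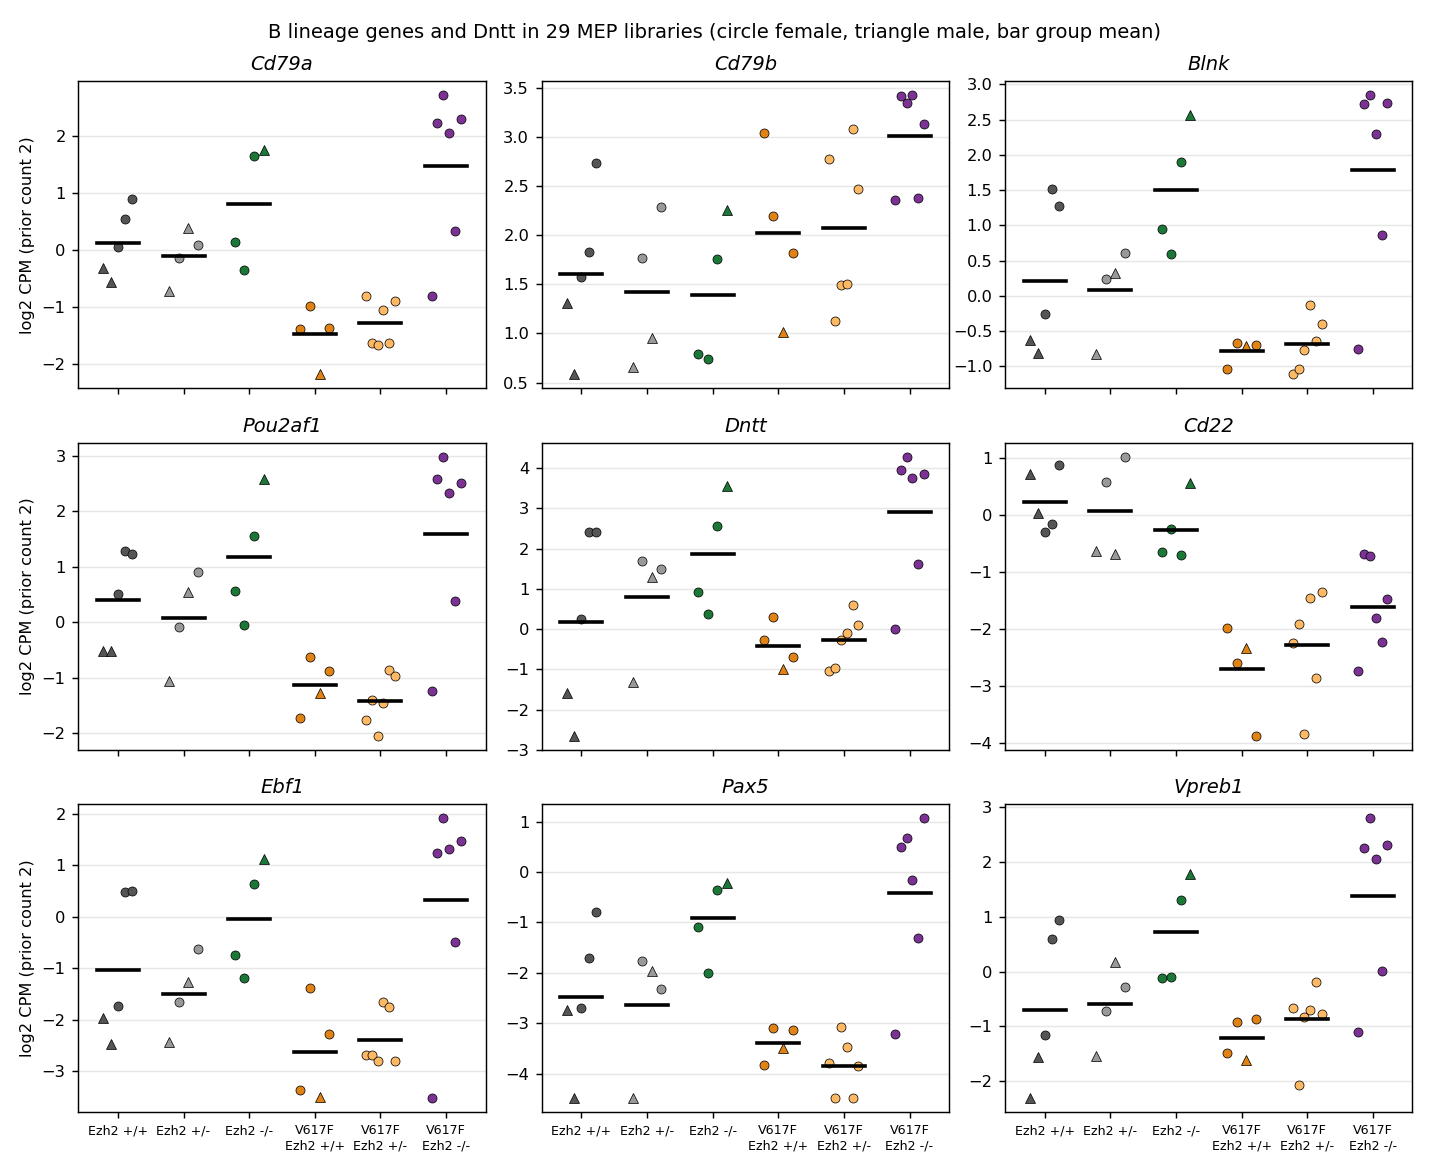
Log2 CPM (prior count 2) of the 9 genes, 1 panel each, in 29 libraries grouped by genotype; circles are female and triangles male libraries, bars are group means. In 7 panels the V617F Ezh2 -/- libraries split into 4 high libraries, 1 intermediate and 1 at the V617F level. For Cd79b and Cd22 replicates 1 and 5 are also the lowest of that group, over a narrower range.

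Cd79a, the receptor signalling chain, stood at 0.635 to 1.82 CPM in the 5 controls (0.760, 0.635, 0.990, 1.40 and 1.82 in replicates 1 to 5) and at 0.337, 0.459, 0.174 and 0.342 CPM in the 4 V617F libraries. In the double mutant it was at 0.528, 4.62, 6.55, 4.13, 1.22 and 4.89 CPM in replicates 1 to 6, so that all 6 lay above the highest V617F library. Its log2 difference between double mutant and V617F was 3.44 ± 0.60 (SE; edgeR quasi-likelihood test, adjusted p = 0.000168), and it was the only member whose groups did not overlap in this comparison. The share of all tested genes without overlap was not computed, here or for the comparisons below. Absence of overlap is therefore given as a description of single genes. Of the 13928 genes tested, 26.6% were called in this comparison and 13% were called higher, against 7 of 9 members called higher and 0 lower. The median log2 difference of the 9 members was 3.28, beside -0.0034 over all tested genes.

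Dntt was the member with the highest CPM in the double mutant, at 0.950, 15.4, 19.4, 13.3, 3.03 and 14.5 CPM in replicates 1 to 6, against 0.777, 1.18, 0.457 and 0.570 CPM in V617F. In all, 5 of the 6 double-mutant libraries exceeded the highest V617F library and replicate 1 did not. The log2 difference was 3.74 ± 0.95 (SE, edgeR adjusted p = 0.00563).

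Of the other receptor parts, Vpreb1 was at 0.422, 4.74, 6.93, 4.11, 0.956 and 4.92 CPM in the double mutant and at 0.283 to 0.502 CPM in V617F (log2 difference 3.14 ± 0.73, edgeR adjusted p = 0.00303). Blnk, the adaptor, was at 0.549, 6.55, 7.17, 4.87, 1.77 and 6.62 CPM against 0.441 to 0.580 CPM (3.0 ± 0.62, edgeR adjusted p = 0.00113). Both genes had 5 of 6 double-mutant libraries above every V617F library, and replicate 1 inside the V617F range.

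The 3 transcriptional regulators behaved in the same way, Ebf1 and Pax5 at lower levels. Pou2af1 was at 0.380, 5.97, 7.89, 4.98, 1.27 and 5.64 CPM in the double mutant and at 0.259 to 0.604 CPM in V617F (log2 difference 3.28 ± 0.70, edgeR adjusted p = 0.00144). Ebf1, the factor that opens the B cell programme, was at 0.0422, 2.32, 3.72, 2.44, 0.669 and 2.74 CPM against 0.0518, 0.338, 0.0435 and 0.160 CPM (3.61 ± 0.89, edgeR adjusted p = 0.00451). Pax5, which holds cells to the B lineage, was at 0.0633, 1.37, 1.54, 0.856, 0.358 and 2.05 CPM against 0.0259, 0.0725, 0.0435 and 0.0684 CPM (4.07 ± 0.93, edgeR adjusted p = 0.00274). The V617F levels of Pax5 rest on 1 to 3 counts a library and those of Ebf1 on 2 to 14, so the fitted size of both changes is less certain than their direction. Per kilobase of gene length, the double-mutant means were 5.21 CPM for Dntt, 4.79 for Vpreb1, 2.75 for Cd79a, 2.19 for Blnk, 1.70 for Pou2af1, 0.886 for Ebf1 and 0.860 for Pax5.

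**Figure D2:**
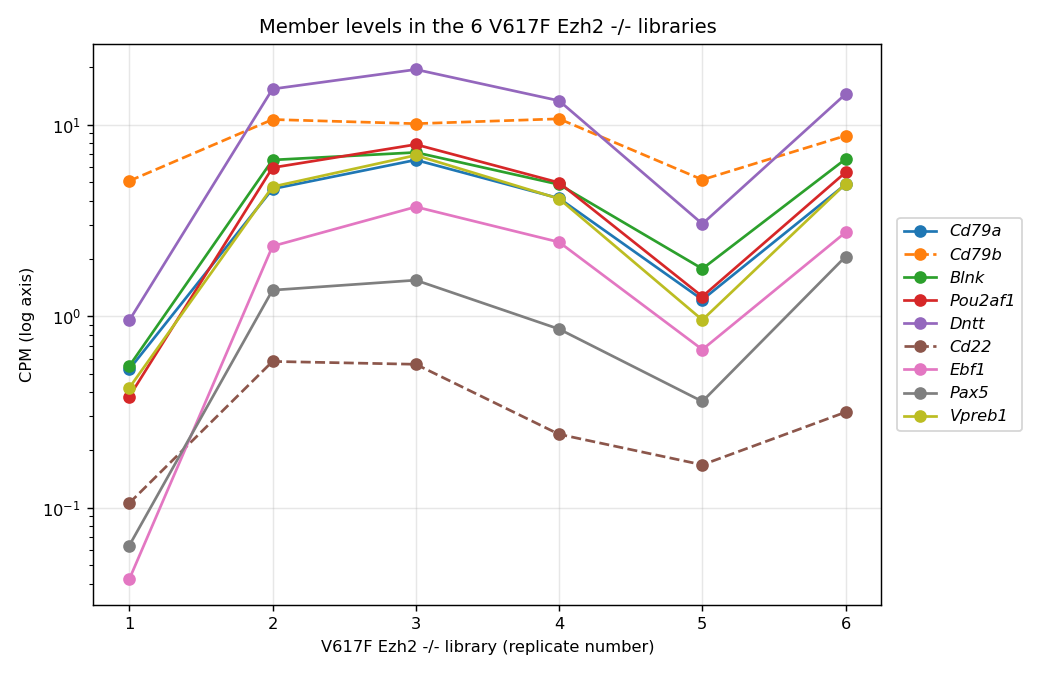
CPM (log axis) of the 9 genes in the 6 V617F Ezh2 -/- libraries, by replicate number; lines join the values of 1 gene, and dashed lines mark Cd79b and Cd22. The lines of all 9 genes are lowest in replicate 1, next lowest in replicate 5 and higher in replicates 2, 3, 4 and 6. From replicate 1 to replicate 3 Cd79b differed 1.99-fold and Cd22 5.31-fold, less than the other 7 genes.

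The double-mutant libraries differed widely in all 7 genes, and the ratios between the more abundant ones differed less. From replicate 1 to replicate 3, Cd79a differed 12.4-fold, Blnk 13.1-fold, Vpreb1 16.4-fold, Dntt 20.5-fold and Pou2af1 20.8-fold. Over the 6 libraries the ratio of Vpreb1 to Cd79a ran from 0.784 to 1.06, that of Blnk to Cd79a from 1.04 to 1.45 and that of Dntt to Cd79a from 1.80 to 3.33, while those of Ebf1 (0.08 to 0.590) and Pax5 (0.12 to 0.419) were lowest in replicate 1, at 2 and 3 counts. Replicates 2, 3, 4 and 6 filled the 4 highest places among all 29 libraries for Cd79a, Dntt, Ebf1, Pax5 and Vpreb1, and 3 of the 4 highest for Blnk and Pou2af1, where Ezh2 -/- replicate 4 took the remaining place. Replicate 1 ranked between 19 and 29 of 29 for the same 7 genes. Ezh2 was at 59.5 CPM in replicate 1 and at 51.2 to 56.7 CPM in the other 5 double-mutant libraries. Without replicate 1 the log2 difference of Cd79a from V617F was 3.66 (edgeR adjusted p = 1.51e-05) and that of Dntt 3.98 (0.00257), and the count of members called was again 7.

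Other genes of the earliest B cell stages went the same way. Of 15 early B lineage genes outside the 9, 11 were higher and 0 lower in the double mutant than in V617F, with a median log2 difference of 1.97. Akap12, a scaffold protein, rose by 3.20 ± 0.65 (edgeR adjusted p = 0.000967), Rag2, a subunit of the V(D)J recombinase, by 4.79 ± 1.02 (0.00136) and Bach2, a transcriptional repressor of the B lineage, by 0.97 ± 0.20 (0.00107). The 2 most abundant genes of that list, Myb (874 CPM in the double mutant) and Bcl7a (73.1 CPM), are broadly used in progenitors and dominate its summed level, which was 991 to 1197 CPM in the double mutant and 868 to 992 CPM in V617F. Rag1, the other recombinase subunit, was at 0.274, 7.38, 10.6, 6.06, 1.46 and 8.45 CPM in double-mutant replicates 1 to 6, and Igll1, the partner of Vpreb1, at 0.380, 8.35, 11.3, 7.05, 1.94 and 8.70 CPM. These values repeat the order of the members, with replicate 1 low and replicate 5 between.

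Among 13 tested markers of mature B cells, 3 were higher in the double mutant than in V617F and 0 lower. The median log2 difference of these 13 was 1.40. An unadjusted edgeR p under 0.05 was found for 8 of them, and for 5519 of the 13928 tested genes. The 3 called higher include Blk, a receptor-proximal kinase (2.61 ± 0.63, edgeR adjusted p = 0.00420), and Spib, a transcription factor shared with plasmacytoid dendritic cells (1.63 ± 0.48, 0.0159). Ms4a1, which encodes CD20, was at or below 0.145 CPM in all 6 double-mutant libraries, and Fcer2a and Cr2 at or below 0.373 and 0.414 CPM. Fcer2a averaged 0.0482 CPM in V617F and was at 0.0844, 0.373, 0.320, 0.132, 0.0239 and 0.0315 CPM in double-mutant replicates 1 to 6. The whole list summed to 43.0 to 54.0 CPM in the double mutant and 30.6 to 40.4 in V617F, most of it Cd37 (36.5 CPM in the double mutant), with Cd72 next (2.98 CPM).

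Of 18 genes of B cell receptor signalling, 4 were higher and 1 lower, with changes of at most 0.47 among those named: Malt1 rose by 0.31 ± 0.08 (edgeR adjusted p = 0.00584), Cblb by 0.28 ± 0.08 (0.0138) and Lyn by 0.47 ± 0.15 (0.0192), while Ptpn6 fell by 0.18 (0.00420). Of 17 lymphoid transcription factors 3 were higher, namely Foxo1 (0.81 ± 0.14, edgeR adjusted p = 0.000129), Id3 (1.98 ± 0.49, 0.00511) and Runx1 (0.56 ± 0.17, 0.0158). Of 7 plasma cell genes tested 3 were higher, Mzb1 with the lowest adjusted p (2.39 ± 0.56, 0.00330).

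Markers of other cell types were read in the same comparison. Of 9 genes of lymphoid-primed progenitors, which include Il7r and Rag1 from the early B list, 4 were higher, of 9 plasmacytoid dendritic cell genes tested 3 were higher, and of 20 T and NK cell genes 3 were higher and 1 lower. Of 15 stem cell genes 1 was higher (Cd48), of 16 monocyte and dendritic cell genes 1 was higher (Cx3cr1), and of the 14 erythroid genes 2 were lower (Car1 and Car2) and 0 higher. None of 14 granulocyte, 11 tested megakaryocyte or 8 MHC class II genes passed the edgeR test, and 0 of each list had an unadjusted p under 0.05. T and NK genes summed to 99.9 to 147 CPM in the double mutant and 49.96 to 101 in V617F, and double-mutant replicate 1, low in the B lineage genes, had 105 CPM. Granulocyte genes summed to 142 to 1358 CPM in the double mutant, lowest in replicate 6, which was among the 4 high libraries for the members. The lymphoid-primed genes summed to 36.9 and 34.0 CPM in replicates 1 and 5, 42.3 in replicate 6 and 69.8 to 80.0 in the other 3. These sums include Rag1, given above, and Il7r, at 0.696, 11.4, 9.43, 6.76, 2.15 and 5.45 CPM in replicates 1 to 6. Both genes are also in the early B list. Flt3, which is not, was at 0.971, 4.19, 2.66, 3.07, 0.956 and 0.567 CPM. The part of the lymphoid-primed genes in the members' rise was not tested. The erythroid genes summed to 5830 to 7290 CPM in the double mutant and 7644 to 9824 CPM in V617F, without overlap, and stem cell genes to 953 to 1287 and 699 to 1253 CPM. The part of either list in the members' rise was not tested.

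Loss of Ezh2 without JAK2V617F called 0 of the 9 members by edgeR, where 23.7% of tested genes were called. One member, Blnk, had an unadjusted p under 0.05 and DESeq2 also called 0. Dntt was at 1.85, 1.26, 5.90 and 11.8 CPM in the 4 Ezh2 -/- libraries and at 0.288, 0.113, 1.16, 5.24 and 5.31 CPM in the 5 controls. Replicates 3 and 4 of one group and 4 and 5 of the other were the high ones, so the ranges overlapped (log2 difference 1.51 ± 0.89, edgeR adjusted p = 0.224). Cd79a was at 1.06, 0.742, 3.09 and 3.33 CPM in the same Ezh2 -/- libraries (0.89 ± 0.52, edgeR adjusted p = 0.210), and Blnk at 1.89, 1.46, 3.68 and 5.86 CPM (1.26 ± 0.56, adjusted p = 0.104). These SEs are of the order of the estimates, so the test does not show that the levels were alike. Both male controls were the lowest 2 controls for Cd79a, Dntt, Blnk, Ebf1 and Pax5, yet the single male Ezh2 -/- library was the highest of its group for those genes, and among female libraries alone the estimate for Dntt was -0.38 and that for Ebf1 -0.28, neither past the test. Without control replicate 4, Blnk passed the edgeR test (1.60, adjusted p = 0.0453). Without Ezh2 -/- replicate 4, the male library, the estimates fell to 0.53 for Blnk (adjusted p = 0.519), 0.34 for Cd79a, 0.07 for Dntt and 0.02 for Pou2af1. That library was also the highest of its group in summed T and NK genes (135 CPM) and lymphoid-primed genes (52.3 CPM). The part of such cells in these estimates was not tested.

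The difference between the 2 settings was tested as an interaction, that is the change on Ezh2 loss with JAK2V617F minus the change without it. Cd79a passed (2.54 ± 0.78, edgeR adjusted p = 0.0308), and it was 1 of 9 members called, where 19.1% of tested genes were called and 8.47% were called higher. The other 8 ranged from 0.93 ± 0.64 for Cd79b to 2.62 ± 1.19 for Ebf1 (edgeR adjusted p from 0.0786 to 0.275), so a stronger effect of Ezh2 loss with JAK2V617F was not shown for them. The call for Cd79a was lost when any of control 1 or 5, Ezh2 -/- 1 or 3, or V617F 3 or 4 was left out (adjusted p 0.0542 to 0.0606). Without Ezh2 -/- replicate 4, the library with the highest Dntt of that group, 7 members passed. These were all members but Pax5 and Vpreb1, and so not the 7 called in the double mutant against V617F. With 1 library left out, genes called for the interaction ran from 297 to 4633. The 19.1% of the full fit is therefore not the share to set beside these 7 members. The control and V617F libraries enter several of the comparisons given here, which are therefore not independent of each other.

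**Figure D3:**
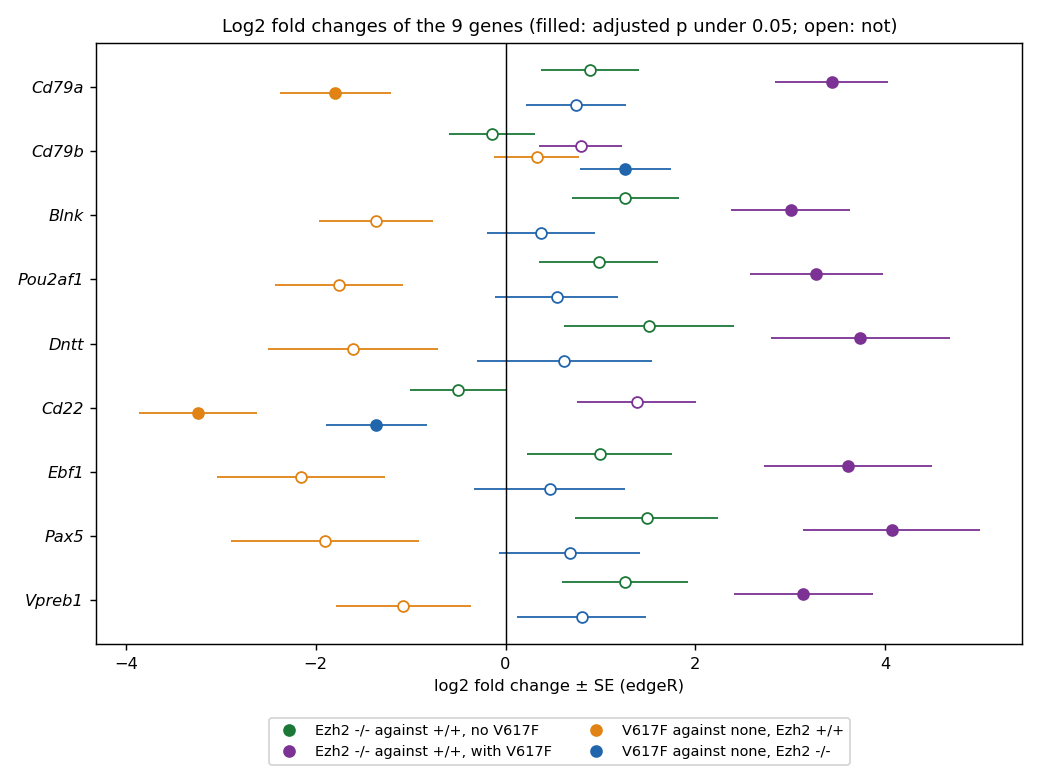
Log2 fold changes with their SE from the edgeR fit of all 29 libraries, for the 9 genes in 4 comparisons; filled points have an adjusted p under 0.05. The 7 genes other than Cd79b and Cd22 have filled points for Ezh2 loss with V617F, and none has one for Ezh2 loss without it.

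Losing a single Ezh2 allele called 0 of 9 members by edgeR, both without JAK2V617F, where 0.0144% of tested genes were called, and with it, where 0.00718% were called. No member had an unadjusted p under 0.05 in either comparison, and DESeq2 called 0 in both. Without V617F the estimates ran from -0.77 ± 0.82 for Ebf1 to 0.08 ± 0.85 for Dntt. With it they ran from -0.96 ± 1.25 for Pax5 to 0.63 ± 0.65 for Cd22. Cd79a was at 0.271 to 0.527 CPM in the 6 V617F Ezh2 +/- libraries (median 0.355), and Dntt at 0.443 to 1.47 CPM (median 0.839), so none of these 6 libraries reached the level of the high double-mutant libraries.

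With JAK2V617F and intact Ezh2, 2 members were called lower than in controls, Cd22 and Cd79a. Over all tested genes 13.9% were called lower, 9.73% higher and 23.6% in all. The median log2 difference of the 9 members was -1.76, beside 0.0094 over all tested genes. Only Cd79b had a positive estimate (0.33 ± 0.45). An unadjusted edgeR p under 0.05 was found for 5 members (Cd79a, Blnk, Pou2af1, Cd22 and Ebf1) and for 5134 of the 13928 tested genes. Cd22, the inhibitory receptor, was at 1.60, 0.975, 0.770, 0.849 and 1.80 CPM in controls and at 0.207, 0.121, 0.152 and 0.0228 CPM in V617F, where the values rest on 1 to 8 counts. The groups did not overlap, and the log2 difference was -3.24 ± 0.62 (edgeR adjusted p = 0.000639). Cd79a fell by 1.79 on the log2 scale (SE 0.58, edgeR adjusted p = 0.0273), again without overlap. This call of Cd79a was lost when control 5 was left out (-1.53, adjusted p = 0.0764) and when V617F 1, 3 or 4 was (0.0556, 0.0856 and 0.0587). Pou2af1 was at 0.655 to 2.40 CPM in controls and 0.259 to 0.604 CPM in V617F, also without overlap, but did not pass (-1.76 ± 0.68, edgeR adjusted p = 0.0601).

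Other lymphoid and antigen-presentation genes moved beside them in the same comparison. Lower calls were made for 15 of 20 T and NK cell genes, 7 of 13 mature B cell genes, 6 of 8 MHC class II genes and 5 of 15 early B genes, and 12 of 14 granulocyte genes were called higher. Among the mature B cell genes Fcer2a fell by 4.05 (edgeR adjusted p = 0.000529), Cd40 by 2.92 (0.00145) and Blk by 2.82 (0.00245). Summed T and NK genes were at 84.1 to 267 CPM in controls and 49.96 to 101 CPM in V617F, MHC class II genes at 184 to 485 and 80.0 to 131 CPM, and granulocyte genes at 57.2 to 345 and 676 to 1204 CPM. The part of such cells in the fall of Cd22 and Cd79a was not tested.

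With 1 Ezh2 allele, Cd22 was again lower with V617F: 0.598, 1.45, 0.578 and 1.99 CPM in Ezh2 +/- against 0.0246 to 0.345 CPM (median 0.194) in the 6 V617F Ezh2 +/- libraries (-2.56 ± 0.54, edgeR adjusted p = 0.00266). It was the only member called there, where 6.51% of tested genes were called lower, 3.35% higher and 9.87% in all. Without control 5 and Ezh2 +/- 2 and 5, the difference of Cd22 was -0.77 (adjusted p = 0.697). The 2 Ezh2 +/- libraries then left, 1 and 4, are both male and all 6 V617F Ezh2 +/- libraries female, so this estimate leans on the sex term of the model. Their Cd22, 0.598 and 0.578 CPM, still lay above all 6.

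Without Ezh2, 2 members were called between the double mutant and Ezh2 -/- cells, in opposite directions, where 41.6% of tested genes were called, 19.1% higher and 22.5% lower. Cd79b was higher with V617F (1.26 ± 0.48, edgeR adjusted p = 0.0378) and Cd22 lower (-1.36 ± 0.53, adjusted p = 0.0417). Cd22 was at 0.590, 0.804, 0.568 and 1.44 CPM in Ezh2 -/- cells and at 0.106, 0.580, 0.561, 0.241, 0.167 and 0.315 CPM in the double mutant. Both calls were fragile: leaving out any 1 of Ezh2 -/- 1, 2 or 3 or double-mutant 2, 3 or 4 ended that of Cd79b (adjusted p up to 0.157), and leaving out any Ezh2 -/- library or double-mutant 1, 4, 5 or 6 ended that of Cd22 (up to 0.133). The other 7 members had estimates of 0.38 to 0.80, none past the test.

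Cd79b, the partner chain of Cd79a, did not follow it from group to group. It was at 2.44, 1.45, 2.93, 3.51 and 6.61 CPM in controls, at 1.69, 1.63, 3.33 and 4.75 CPM in Ezh2 -/-, at 8.21, 4.55, 1.98 and 3.49 CPM in V617F and at 5.09, 10.6, 10.1, 10.7, 5.16 and 8.76 CPM in the double mutant. The V617F range thus overlapped the double-mutant range, and the log2 difference was 0.79 ± 0.44 (edgeR adjusted p = 0.180). Per kilobase of gene length Cd79b averaged 3.80 CPM in V617F, where Cd79a averaged 0.247, and 7.03 CPM in the double mutant, where Cd79a averaged 2.75. The ratio of Cd79b to Cd79a CPM had a median of 2.96 in controls, 1.51 in Ezh2 -/-, 10.8 in V617F and 2.45 in the double mutant. The 2 chains of the receptor were therefore not at a fixed ratio in these libraries.

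Cd79b was set beside the level of megakaryocyte genes. A list of 12 such genes, led in controls by Plek and Vwf (69.6 and 62.8 CPM on average), summed to 96.7 to 150 CPM in Ezh2 -/- cells, 115 to 575 in controls, 323 to 1496 in V617F and 963 to 1502 in the double mutant. Within the double mutant the lowest sums, 963 and 1021 CPM, were in replicates 1 and 5, the 2 libraries lowest in Cd79b. Within V617F the highest sum, 1496 CPM, was in replicate 1, which had the highest Cd79b and not the highest Cd79a. In Ezh2 -/- cells the highest sum, 150 CPM, was in replicate 2, which had the lowest Cd79b (1.63 CPM), while the lowest, 96.7 CPM, was in replicate 3 at 3.33 CPM, and replicate 4 had 4.75 CPM at a sum of 124. The lymphoid-primed genes, too, were high where Cd79b was high in V617F Ezh2 +/- cells. Their sums were 59.1, 69.0 and 63.7 CPM in replicates 1, 5 and 6, at 6.82, 8.46 and 5.50 CPM of Cd79b. Replicates 2, 3 and 4 had sums of 17.3, 19.9 and 20.9 CPM, at 2.13, 2.78 and 2.78 CPM. In Ezh2 -/- cells their highest sum, 52.3 CPM, was in replicate 4 and their lowest, 25.7 CPM, in replicate 3. Summed T and NK genes, too, were highest in the library highest in Cd79b in every group but the double mutant. These were control 5 (267 CPM), Ezh2 +/- 5 (219), Ezh2 -/- 4 (135), V617F 1 (101) and V617F Ezh2 +/- 5 (125). In the double mutant that sum was highest in replicate 2 (147 CPM), and replicate 6 had 101 CPM at 8.76 CPM of Cd79b. The part of any of these lists in the level of Cd79b was not tested.

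**Figure D4:**
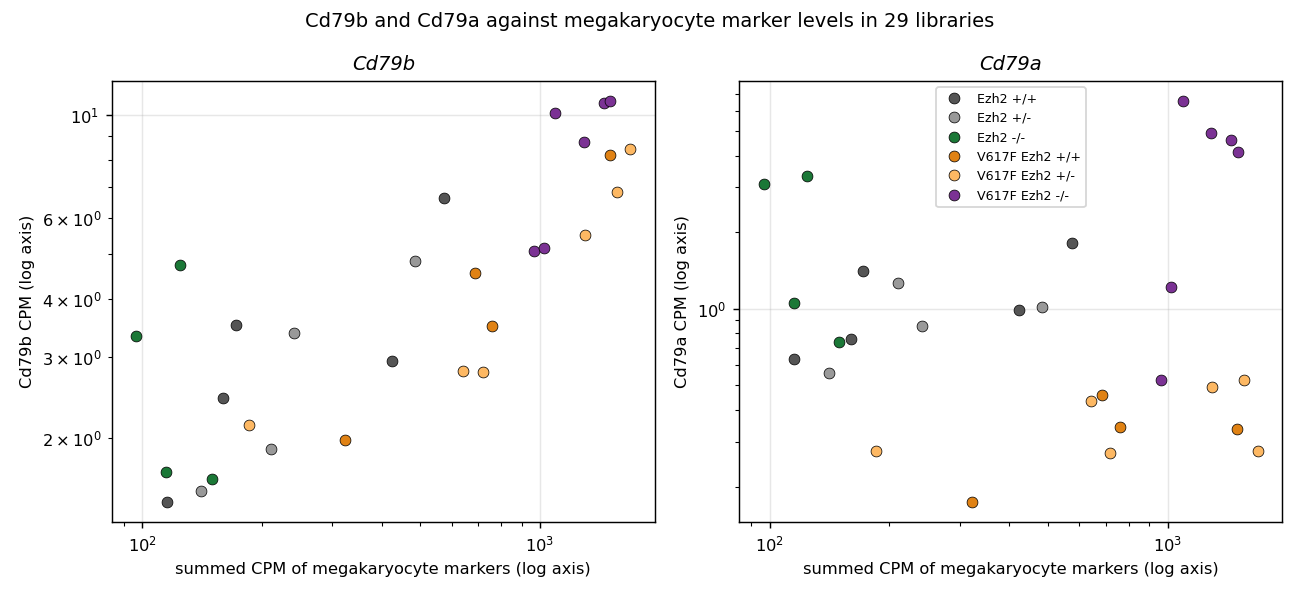
CPM of Cd79b (left) and Cd79a (right) against the summed CPM of 12 megakaryocyte markers in 29 libraries, both axes logarithmic, coloured by genotype. Libraries far to the right are high in Cd79b, up to 10.7 CPM, while Cd79a is at or below 0.527 CPM in every V617F library with at least 1 Ezh2 allele, whatever the sum.

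The spread between libraries was large for all 9 genes. The biological coefficient of variation, the spread within groups left after counting error, was 81.5% for Dntt, 80.0% for Pax5, 77.4% for Ebf1, 65.7% for Vpreb1, 62.2% for Pou2af1, 56.2% for Blnk, 53.0% for Cd79a, 51.6% for Cd22 and 45.4% for Cd79b. For Dntt, 99.5% of tested genes had a lower value, and for Cd79b 89.9% did. Genes of the same mean level had a fitted value of 29.5% at the level of Dntt and 36.1% at that of Cd79a. Counting error was a small part of it where levels were high. For Dntt in the double mutant the coefficient of variation over libraries was 66.5%, and the coefficient expected from counting alone was 4.51%. In V617F, by contrast, Blnk varied by 12.3% over 4 libraries, below the 20.9% expected from counting.

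**Figure D5:**
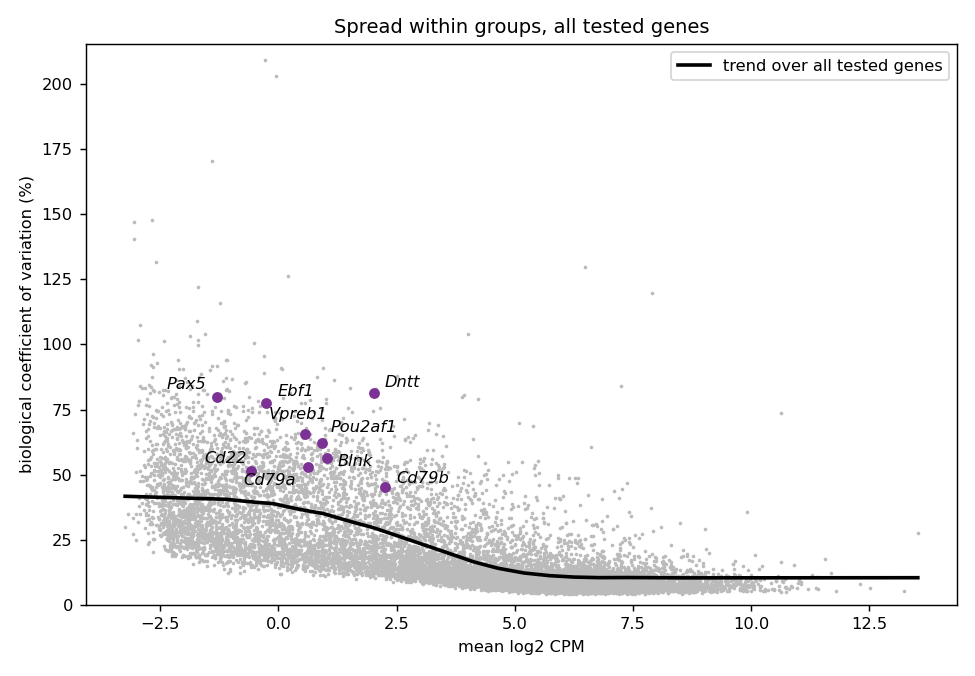
Biological coefficient of variation (%) within groups against mean log2 CPM for the 13928 tested genes (grey), with the trend (black line) and the 9 genes (purple). All 9 lie above the trend, Dntt farthest at 81.5% where the trend is at 29.5%.

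Controls, too, differed from library to library. Dntt differed 46.8-fold between control 2 (0.113 CPM, 5 counts) and control 5 (5.31 CPM, 321 counts), the widest range of any member within the 5 controls for which no library was at 0. Ebf1 was at 1.35 and 1.37 CPM in controls 4 and 5 and at 0.136 to 0.257 CPM in controls 1 to 3, and Vpreb1 at 1.46 and 1.88 CPM against 0.157 to 0.403 CPM. Pax5 was at 0 counts in control 2 and at 32 counts, 0.529 CPM, in control 5, where 0 counts allow up to 0.0664 CPM, an upper limit for counting error only. Controls 4 and 5 were thus above controls 1 to 3 in each of these genes. The gap was not always wide: Pax5 was at 0.263 CPM (9 counts) in control 4 and 0.110 CPM (6 counts) in control 3. Dntt in control 3, at 1.16 CPM, lay between controls 1 and 2 and controls 4 and 5. In controls the ratio of Dntt to Cd79a ran from 0.179 to 3.73 and that of Vpreb1 to Cd79a from 0.207 to 1.04. Both ranges were wider than in the double mutant (1.80 to 3.33 and 0.784 to 1.06).

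Over the 23 libraries outside the double mutant, with each value taken relative to its group's mean, Cd79a was correlated with 7 of the other 8 members. The share of all tested genes that pass the same test was not computed, so this count has no background beside it. By r with Cd79a over all 29 libraries, double mutant included, these 7 ranked between 3 (Pou2af1) and 90 (Cd79b) of 13927 genes. Pearson's r ran from 0.66 for Cd79b to 0.79 for Pou2af1 and Spearman's rho from 0.68 for Cd79b to 0.83 for Ebf1 (permutation within groups, 100000 draws, 8 relations, two-sided, Benjamini-Hochberg adjusted p 0.00122 to 0.00247 for r and 0.00128 to 0.00301 for rho). Without Ezh2 -/- 2 and 4, the 2 libraries farthest from the median, r was 0.62 to 0.76. For Cd22, r was 0.24 and rho 0.26 (permutation p = 0.248 and 0.242, the same after adjustment). These libraries differ in cell content and RNA together, and the points of a library share its depth.

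Ranked over all 13927 other genes by r of group-centred log2 CPM in 29 libraries, given as a description, the genes most like Cd79a included Vpreb3 (0.93), Pou2af1 (0.91), Chst3 (0.89) and Blnk (0.89), and those most like Dntt included Igll1 (0.95), Tnfrsf19 (0.92), Blnk (0.92) and Akap12 (0.91). Rankings for Cd79b and Cd22 were added after the values were seen. The genes most like Cd79b were Tpm4 (0.95), Ppp1r16b (0.94), Trp53i11 (0.93), Arhgef3 (0.93) and Ppp1r18 (0.93), and the other 8 members ranked between 1347 and 4235. The genes most like Cd22 were Ms4a4c (0.81), Npnt (0.78), Klrd1 (0.78), Klrc1 (0.77) and Adap2 (0.76), of which Klrd1 and Klrc1 encode NK cell receptors, and the other 8 members ranked between 779 and 2429.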

How the data were processed

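RNA-seq of sorted mouse MEPs was deposited as 1 table of raw gene counts per library, 29 in all, with Entrez gene numbers and gene lengths. Per the submitters' processing notes the authors aligned reads with STAR to mm9; the STAR version, annotation, counting tool and strand setting were not given in the sources used here. Counts deposited by the authors were used unchanged. Entrez numbers were matched to symbols for 18772 of 18834 genes.

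Groups came from the labelled genotypes. One edgeR 4.0.16 quasi-likelihood fit (robust, TMM, filterByExpr with minimum count 10 and minimum total 15, R 4.3.3) covered all 29 libraries with group and labelled sex as terms and 22 residual degrees of freedom. It tested 13928 genes, with Benjamini-Hochberg adjustment over all of them and a call at 0.05. TMM factors ran from 0.950 to 1.09. The fit was tested on simulated data. Totals of 31583023 to 59448945 counts put the limit of 3 counts at 0.0505 to 0.0950 CPM, and intervals and limits cover counting error only. Correlations were permuted with numpy 2.4.6.

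The 9 members and all marker lists were chosen with earlier results of these data known. Named genes were all members, up to 3 genes per other list, direction and comparison with the lowest adjusted p, the 2 most abundant genes of a list, and the 5 genes most like Cd79a and Dntt; the per-library values of Rag1, Igll1, Ms4a1, Fcer2a and Cr2 and the likeness to Cd79b and Cd22 were chosen after their values were seen. The alternatives were a fit without the sex term, female libraries only, only the compared groups, DESeq2 1.42.0, median-of-ratios size factors in edgeR, no low-count filter, a replicate block, each library left out in turn, and 3 libraries left out together. Promoters came from RefSeq, build GRCm38.p6, by symbol. A gene that this rule names is not reported here.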

Additional observations from a re-analysis of the deposited data

Results flagged for a closer look

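Blnk in V617F cells had 1 library far from the others: V617F replicate 1 was at 0.441 CPM and the other 3 at 0.566 to 0.580 CPM. It was 1 of 54 combinations of member and group examined in this way, and chance gives about 1 such library in 20 groups. The value rests on 17 counts, and the spread of all 4 libraries was below that expected from counting.

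The effect of Ezh2 loss on Cd79a differed between the setting with and the setting without JAK2V617F by 2.54 on the log2 scale (edgeR interaction test, adjusted p = 0.0308). All 6 double-mutant libraries lay above every V617F library, while 2 of 4 Ezh2 -/- libraries lay above every control.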

How the results depend on the processing

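The 7 higher calls in the double mutant against V617F were made in all 18 alternatives, with adjusted p at most 0.0483 (Ebf1, only the compared groups), and Cd22 joined them without control 5 and Ezh2 +/- 2 and 5 (1.63, adjusted p = 0.0378). CPM by group moved by less than the spread between libraries when library totals were used without TMM factors. Depth limits Pax5, Ebf1 and Cd22, which rest on fewer than 15 counts in each V617F library. In what follows the cause of each change was not tested.

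Members called changed as follows. V617F against control called 1 with female libraries, 4 with only the compared groups (Pou2af1 and Ebf1 added) and with DESeq2 4, and 1 without the 3 libraries named above; with 1 Ezh2 allele DESeq2 called 2 and the fit without those 3 libraries 0; without Ezh2, 1 with only the compared groups, 0 with no low-count filter and 1 without the 3 libraries. For the interaction the counts were 0 with female libraries, 2 with only the compared groups, 2 with DESeq2 and 0 without the 3 libraries. With 1 library left out, 0 to 1 members were called for Ezh2 loss without V617F, 1 to 2 for V617F against control, 0 to 1 for V617F without Ezh2 and 0 to 7 for the interaction.

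Genes called in all changed too. With female libraries 1681 were called for Ezh2 loss without V617F and 2268 with it, 0 and 20 for loss of 1 allele without and with V617F, 1875 for V617F against control and 128 for the interaction. With only the compared groups the single-allele counts were 1 and 2, and V617F with 1 allele called 313. DESeq2 called 6 and 35 for the single-allele losses. V617F with 1 allele called 2170 without the sex term and 94 without the 3 libraries, a fit that called 1 for the single-allele loss without V617F and 1199 for the interaction. With 1 library left out, genes called ran from 2096 (without Ezh2 -/- 3) to 3595 for Ezh2 loss without V617F, 1954 (without V617F 4) to 5151 with it, 1 to 2 and 1 to 37 (without V617F 3) for the single-allele losses, 706 (without Ezh2 +/- 5) to 1893 for V617F with 1 allele, 3197 (without Ezh2 -/- 3) to 6112 for V617F without Ezh2, and 297 (without Ezh2 -/- 3) to 4633 (without V617F 1) for the interaction.

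Only estimates that passed no test changed sign. Without the sex term Dntt was -0.15 for single-allele loss without V617F, and Cd79b 0.061 and Ebf1 0.11 with it. With female libraries Pou2af1 was -0.20, Dntt -0.38 and Ebf1 -0.28 for Ezh2 loss without V617F, and Dntt -0.39 and Cd22 0.57 for single-allele loss. With only the compared groups Vpreb1 was 0.11 for single-allele loss. Without the 3 libraries Cd79b was 0.17 for Ezh2 loss without V617F, Cd79a 0.013 and Vpreb1 0.45 for single-allele loss without V617F, and Cd79b 0.045 and Ebf1 0.047 with it. With 1 library left out, the ranges for single-allele loss without V617F were -0.58 to 0.021 for Blnk, -0.46 to 0.21 for Cd22, -0.42 to 0.14 for Cd79b, -0.35 to 0.55 for Dntt, -0.69 to 0.40 for Pax5 and -0.59 to 0.30 for Vpreb1, and with V617F -0.064 to 0.17 for Blnk, -0.0021 to 0.38 for Cd79a, -0.28 to 0.37 for Cd79b, -0.18 to 0.30 for Dntt and -0.30 to 0.72 for Ebf1. Cd79b ran from -0.049 to 0.68 for V617F against control and from -1.01 to 0.16 for Ezh2 loss without V617F, and Ebf1 from -0.066 to 1.42 for that loss and from -0.013 to 1.28 for V617F without Ezh2.

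Replicate numbers did not pair the samples: of 62 pairs with the same number, deviations correlated at -0.49 to 0.79 (median -0.0053), 22 were above 0.1, and 8 of 29 libraries correlated best with their own number. With the number as a replicate block, 7 members were called in the double mutant against V617F, genes called were 1 for single-allele loss without V617F and 1623 for the interaction, and Cd79b became 0.012 for Ezh2 loss without V617F and Blnk -0.15 and Dntt -0.55 for single-allele loss with V617F.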
